A study of Mus musculus with 12 samples.

Results

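The 5547 sites described here are genomic windows of 1000 bp that carried the name of the knockout site list (NLRP3.idr) and not that of the wild-type list (WT.idr). They made up 8.18% of the 67822 windows in which the authors counted tags. Of the remaining windows, 51215 stood in both lists and 11060 in the wild-type list alone. The file headers place the merged sites in a directory named ATAC, so the lists come from another measurement than the H3K27ac tags compared below, as far as that name tells. The 12 libraries came from CD11b+ microglia of the mouse forebrain and fell into 4 groups of 3: H3K27ac chromatin immunoprecipitation and input chromatin, each from wild-type mice of the C57BL/6N background and from Cias1-knockout mice, named Nlrp3-/-, obtained from Millennium Pharmaceuticals. All H3K27ac libraries were made with the same antibody serum. The age and sex of the mice are not stated, and neither is whether the replicates of a group were separate animals, so p-values measure the spread between these libraries, which may be technical. The labels name no background for the knockout and do not say whether the genotypes were littermates, and a difference of background or housing cannot be told apart from the genotype.

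Acetylation of lysine 27 on histone H3 (H3K27ac) marks nucleosomes beside active promoters and enhancers, while accessible chromatin also includes sites that carry little of the mark. Microglia, the resident macrophages of the brain, hold a large set of distal enhancers around a core of myeloid transcription factors such as PU.1. NLRP3 is a cytosolic sensor that assembles an inflammasome, which activates caspase-1 and the release of interleukin-1 beta.

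Promoter sequence is shown for 3 of the sites, because no genome accompanied the data and the RefSeq promoter table (build GRCm38.p6, 250 bases before to 50 after a transcription start site, TSS) covers only promoters. Brd2, which encodes a bromodomain protein that binds acetylated histones, and P4hb, which encodes protein disulfide isomerase, stood among the 5 most acetylated promoter sites of the group. Slc1a3, which encodes the glial glutamate transporter GLAST, was the most acetylated site near a gene of glutamine and glutamate metabolism, and its sequence was added after its values were seen. The Brd2 sequence (chr17:34121698-34121997, minus strand) and the Slc1a3 sequence (chr15:8710758-8711057, minus strand) lie whole inside their windows, and 269 of the 300 bases of the P4hb sequence (chr11:120573204-120573503, minus strand) do. Capitals mark the matches, on either strand, to the motifs listed in the next paragraph.
Brd2: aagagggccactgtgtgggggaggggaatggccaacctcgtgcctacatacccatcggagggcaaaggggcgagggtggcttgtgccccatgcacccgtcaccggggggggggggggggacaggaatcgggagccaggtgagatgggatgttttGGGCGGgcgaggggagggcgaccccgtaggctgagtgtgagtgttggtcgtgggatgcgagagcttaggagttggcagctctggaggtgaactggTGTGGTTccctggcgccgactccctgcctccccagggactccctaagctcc
P4hb: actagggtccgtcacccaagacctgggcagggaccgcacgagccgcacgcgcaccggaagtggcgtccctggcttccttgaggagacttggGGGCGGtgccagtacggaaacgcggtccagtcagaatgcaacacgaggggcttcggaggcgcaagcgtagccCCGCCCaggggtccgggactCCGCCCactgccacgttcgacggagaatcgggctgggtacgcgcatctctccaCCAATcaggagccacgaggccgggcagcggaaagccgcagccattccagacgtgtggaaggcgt
Slc1a3: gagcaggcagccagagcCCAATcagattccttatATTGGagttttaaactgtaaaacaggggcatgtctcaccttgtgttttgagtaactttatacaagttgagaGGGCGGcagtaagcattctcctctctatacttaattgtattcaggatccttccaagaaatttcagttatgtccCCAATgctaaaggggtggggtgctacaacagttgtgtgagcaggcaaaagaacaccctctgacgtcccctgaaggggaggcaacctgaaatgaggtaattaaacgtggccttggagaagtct

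The motifs searched on both strands were GAGGAAG (PU.1), TGANTCA (AP-1), TGTGGTT (RUNX), TTGCNNAA (C/EBP), CACGTG (MiT/TFE), CCAAT (NF-Y), CGCATGC (NRF1) and GGGCGG (Sp/KLF). Brd2 held 1 GGGCGG and 1 TGTGGTT match, P4hb held 3 GGGCGG and 1 CCAAT match, and Slc1a3 held 3 CCAAT and 1 GGGCGG match. Their GC contents were 66.0%, 67.0% and 45.3%. In all, 393 RefSeq promoters of 360 genes lay inside a knockout-only window, with a median GC content of 58.7%, against 52.7% over the 32851 promoters of the table and 62.0% over the 10827 inside a both-lists window. GGGCGG stood in 49.4% of the promoters in knockout-only windows, in 35.7% of all promoters and in 67.0% of those in both-lists windows. GAGGAAG stood in 16.3%, 13.6% and 14.5%, and CCAAT in 31.3%, 37.4% and 39.8% of these same sets. The shares for TGANTCA were 5.60%, 7.81% and 4.49%, for TTGCNNAA 8.91%, 10.8% and 7.89%, for TGTGGTT 3.82%, 5.27% and 3.63%, for CACGTG 9.92%, 7.15% and 10.8%, and for CGCATGC 4.58%, 3.58% and 7.15%. The sets overlap, as only 275 of the 393 promoters lay in no window of another list. Among those 275 the median GC content was 57.0%. GGGCGG stood in 44.0% of them, GAGGAAG in 16.7%, CCAAT in 31.3% and TGANTCA in 6.91%. The shares there were 9.45% for TTGCNNAA, 5.09% for TGTGGTT, 7.64% for CACGTG and 2.91% for CGCATGC. A match is a run of letters and not a binding site, and GC content differed between the sets.

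The knockout-only sites were mostly distal. The authors' annotation put 2766 of them (49.9%) in introns and 1864 (33.6%) between genes. Only 517 (9.32%) were annotated as promoter-TSS, against 22.2% of the both-lists windows and 11.8% of the wild-type-only windows. Exons held 141 sites, transcription termination sites 92, 3' UTRs 73, 5' UTRs 56 and non-coding exons 24, and 14 had no annotation. The median distance to the nearest TSS was 14936 bp, with quartiles of 3247 and 42686 bp, against medians of 8752.5 bp for both-lists windows and 10620 bp for wild-type-only windows. Within 1 kb of a TSS lay 874 sites (15.8%), against 27.8% of both-lists and 21.4% of wild-type-only windows.

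**Figure D1:**
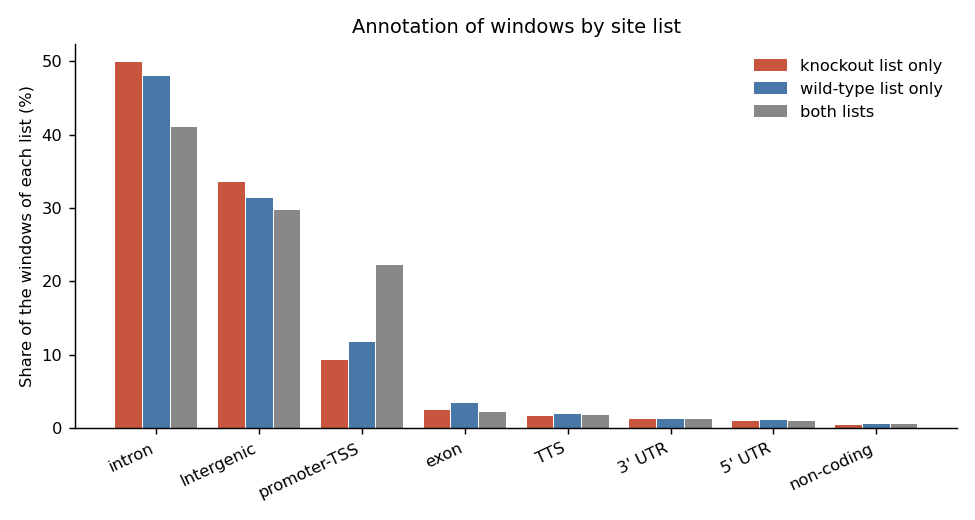
Share of windows (%) in each annotation class, for the windows of the knockout list alone, the wild-type list alone and both lists. Introns hold 49.9% of the knockout-only sites, and promoter-TSS windows 9.32% of them against 22.2% of the both-lists windows.

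Part of these sites lay on repeats. The detailed annotation named a long terminal repeat (LTR) for 387 (6.98%), a SINE for 226 (4.07%) and a LINE for 191 (3.44%), and a CpG island for 151 (2.72%). The LTR share was 5.71% in the wild-type-only and 5.18% in the both-lists windows, and the LINE share 2.35% and 2.39%. By chromosome, the knockout-only share of windows ran from 6.03% on chromosome 19 to 9.58% on chromosome 6, with 98 sites on X, 18 on unplaced sequence and none among the 7 windows on Y. Many sites neighboured a shared one: the median distance to the nearest both-lists site was 3586 bp, and 1922 (34.6%) overlapped another window and share tags with it. The peak score that the table carries for each site had a median of 691 in this group and 923.333 in the both-lists windows.

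The nearest genes numbered 3930, and 2937 of them had 1 site. The genes with the most, 9 each, were A630001O12Rik, a non-coding RNA gene, Elmo1, which encodes an adaptor of Rac activation in engulfment, and Nav2, which encodes a neuron navigator protein. Pdgfb, the gene of a platelet-derived growth factor chain, and Runx1, a transcription factor gene of blood and myeloid development, were next under the naming rule, with 8 each. For Pdgfb the 8 sites were of 17 windows nearest the gene, the other 9 stood in both lists, and none stood in the wild-type list alone. For Elmo1, Nav2 and Runx1 the wild-type list alone held 9, 7 and 10 windows, of 66, 45 and 61 in all. No tested site of these 5 genes was called between the genotypes (smallest edgeR adjusted p = 0.998). Most of their sites were too low to be tested. Tested were 4 of 9 for A630001O12Rik, 4 of 9 for Elmo1, 2 of 9 for Nav2, 4 of 8 for Pdgfb and 1 of 8 for Runx1.

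H3K27ac over input, the ratio of group mean tag counts scaled to equal library totals (CPM) with 0.5 added to both, was low at these sites in both genotypes. The median was 1.62 in wild type and 1.75 in the knockout, against 1.81 and 1.88 in wild-type-only windows and 3.49 and 3.83 in both-lists windows. Taken library by library against the mean input of the genotype, the medians were 1.60, 1.53 and 1.38 in wild-type replicates 1, 2 and 3 and 1.78, 1.72 and 1.57 in knockout replicates 1, 2 and 3. These are means of 1.505 ± 0.114 and 1.69 ± 0.109 (SD, n = 3 per group), and the lowest knockout library stood below the highest wild-type library. The knockout median from group means, divided by the wild-type median, was 1.08 for the knockout-only sites, 1.03 for wild-type-only windows and 1.09 for both-lists windows. This quotient of medians is not the median change per site. H3K27ac over input exceeded 1 at 3775 knockout-only sites (68.1%) in wild type and 3939 (71.0%) in the knockout, and exceeded 5 at 967 (17.4%) and 1084 (19.5%).

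The level depended on where a site lay. Sites annotated as promoter-TSS had medians of 3.05 in wild type and 3.25 in the knockout, and sites in 5' UTRs 3.27 and 4.48. Intronic sites stood at 1.75 and 1.92, and intergenic sites at 1.23 and 1.34. The 1589 sites with a both-lists site under 1 kb away had medians of 4.53 and 4.96, the 2327 at 1 to 10 kb of 1.47 and 1.59, the 1226 at 10 to 50 kb of 1.00 and 1.06, and the 405 at 50 kb or more of 0.900 and 1.00. Sites that overlapped another window stood at 3.90 and 4.33, and the 3625 that overlapped none at 1.16 and 1.27, so part of the acetylation in the first set was counted in tags shared with a neighbour. The 604 sites with a peak score of 1000 had medians of 2.13 and 2.40, and the 3392 under 750 of 1.54 and 1.62.

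**Figure D2:**
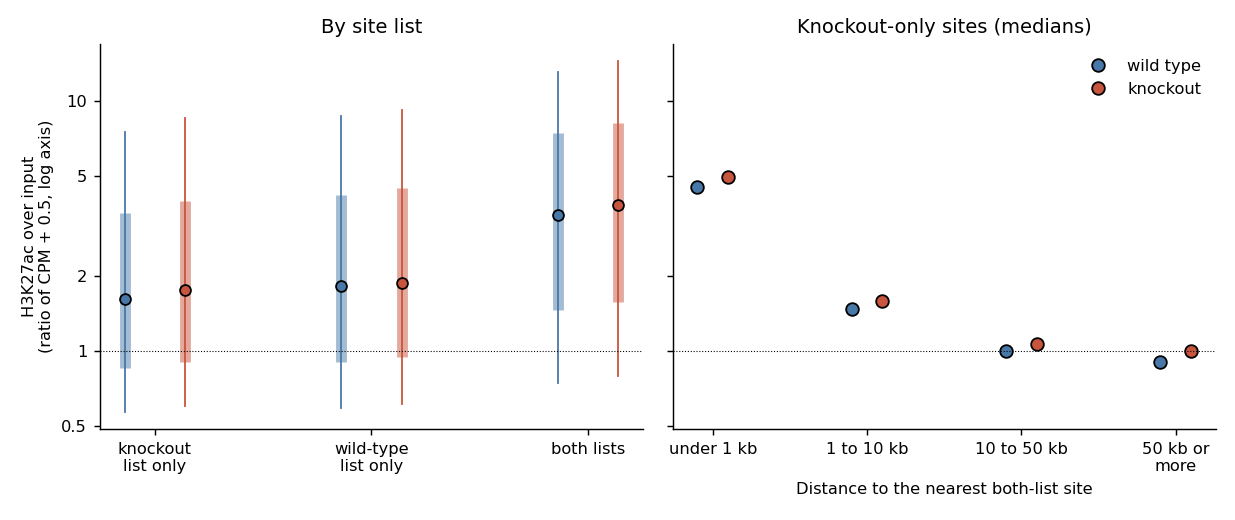
H3K27ac over input on a log axis, with wild type in blue and the knockout in red. On the left points are medians over windows, thick bars the interquartile range and thin bars the range from the lowest to the highest decile for each list; on the right points are medians of the knockout-only sites by distance to the nearest both-lists site, falling from 4.53 and 4.96 under 1 kb to 0.900 and 1.00 at 50 kb or more.

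The summed tags gave a small genotype difference. The knockout-only sites held 4.38%, 4.37% and 4.39% of the window tags in wild-type H3K27ac replicates 1, 2 and 3, and 4.53%, 4.49% and 4.52% in the knockout replicates. Every knockout library stood above every wild-type library, at 4.51% against 4.38% on average. Input went the other way, with 4.42%, 4.29% and 4.28% in wild type against 4.02%, 3.94% and 4.16% in the knockout. As a share of all tags of a library the H3K27ac values overlapped, at 1.79% to 1.98% in wild type and 1.77% to 2.09% in the knockout. In every library these shares were below the 8.18% of windows that the sites make up. The lower input share was not particular to these sites. Wild-type-only windows held 9.29%, 9.06% and 9.07% of window tags in wild-type input against 8.40%, 8.27% and 8.78% in knockout input. Both-lists windows held 86.3% to 86.6% against 87.1% to 87.8%. In H3K27ac the wild-type-only windows held 9.82%, 9.90% and 9.78% in wild type against 9.66%, 9.62% and 9.81% in the knockout.

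**Figure D3:**
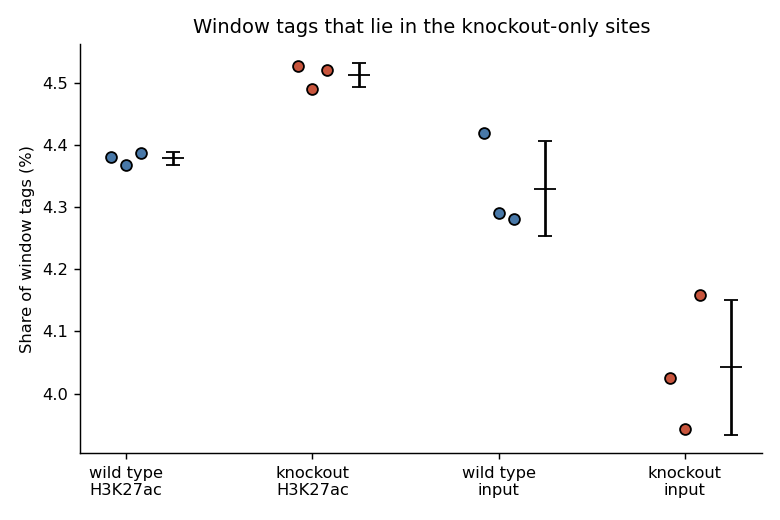
Share of each library's window tags (%) that lies in the 5547 knockout-only sites, by group; points are libraries, and the bar beside them is the mean with its SD (n = 3). The axis does not start at 0; the 3 knockout H3K27ac libraries lie above the 3 wild-type ones, and the knockout input libraries lie below the wild-type input libraries.

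Depth limits what single sites can show. The H3K27ac libraries held 3726550 to 5028129 tags and the input libraries 3287009 to 6961590. A knockout-only site had a median of 5 to 7 tags in an H3K27ac library and 2 to 4 in an input library, and 18.9% to 36.4% of the sites had no tag in a given H3K27ac library. Over the 3 libraries of a genotype 464 sites had no wild-type and 418 no knockout H3K27ac tag, of which 135 had none in either. Wild-type replicate 1 stood apart in its Y-linked tags, with 12 H3K27ac tags in the 7 windows on Y against 193 to 280 in the other 5 libraries, so the sexes were not balanced between the genotypes. Promoters of the homeostatic microglia list had medians of 11.01 and 12.1 times input in wild type and knockout, over all windows within 1 kb of a TSS. That level was not particular to this list. Immediate early genes stood at 10.97 and 11.9, and NF-kB cytokines and chemokines at 11.8 and 11.3. All both-lists windows within 1 kb of a TSS had medians of 5.80 and 6.32. Promoters in the lists of other brain and blood cells had medians from 1.22 (neurons) to 3.09 (astrocytes) in wild type and from 1.00 (neurons) to 3.87 (monocytes and neutrophils) in the knockout.

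In the test of H3K27ac against input, run with edgeR over all windows in 1 fit of 12 libraries, 2199 of the 5547 sites passed the filter on low counts. Of these, 1825 were called above input in wild type and 1940 in the knockout at an adjusted p under 0.05, next to a background of 88.7% and 91.7% of the 40663 windows tested. Called below input were 2 and 4 sites, against 0.315% and 0.371% of all tested windows. Both genotypes shared 1713 of the calls above input, while 112 sites were called in wild type alone and 227 in the knockout alone. Over all 40663 windows these counts were 34505, 1554 and 2764. Calls in the knockout alone were also the more numerous among wild-type-only windows, at 414 against 240 in wild type alone. A site passes the filter mostly by holding H3K27ac tags, so these counts describe the sites with enough tags and not all members. Without the filter 1836 and 1999 of all 5547 sites were called above input and 177 and 224 below. With TMM normalization, which takes most windows as unchanged, 259 sites were above and 621 below in wild type, and 284 above and 616 below in the knockout.

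The difference between the genotypes in H3K27ac over input was tested in that fit as well. It called 0 of the 2199 sites, as it called 0 of all 40663 windows (0%), and 95 of the sites (4.32%) had an unadjusted p under 0.05, near the 4.34% of all windows in that fit. The smallest unadjusted p among the sites named here, 4.39e-05, belonged to the site in Gaa, with an edgeR adjusted p of 0.902. The input libraries add their own counting error to this test, with 2 to 4 tags at a median site.

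Between the H3K27ac libraries alone, 8 knockout-only sites rose in the knockout and none fell by edgeR, while DESeq2 called 12 higher and 1 lower. The edgeR quasi-likelihood test compared 3 against 3 libraries, and 2178 of the 5547 sites passed its filter. A window can pass on the tags of 1 genotype alone, as 3 of the called sites did on knockout tags. The counts below therefore describe the sites that passed, as do the shares over all tested windows. Over all windows DESeq2 called 24 higher and 44 lower. With edgeR, 0.0248% of the 40370 windows tested were called higher and 0.0347% lower. Knockout-only sites were 8 of the 10 windows called higher in the whole fit, and none of the 14 called lower; 10 of those 14 stood in the wild-type list alone. Over the 2178 tested sites the median log2 fold change was 0.033, against 0.0042 over all tested windows, and its lowest and highest deciles were −0.70 and 0.84. The knockout libraries lay above every wild-type library, on the scale of the fit, at 134 sites (6.15%) and below at 94 (4.32%), next to a background of 5.48% and 5.40%. A fitted change of more than 2-fold was seen upward at 161 sites and downward at 84. These are 7.39% and 3.86% of those tested, against 3.83% and 3.72% of all tested windows. The shares were 5.04% and 5.45% in wild-type-only windows and 3.44% and 3.48% in both-lists windows. At an unadjusted p under 0.05 stood 73 knockout-only sites higher and 34 lower, 3.35% and 1.56% of those tested, against 2.19% and 2.50% of all tested windows.

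**Figure D4:**
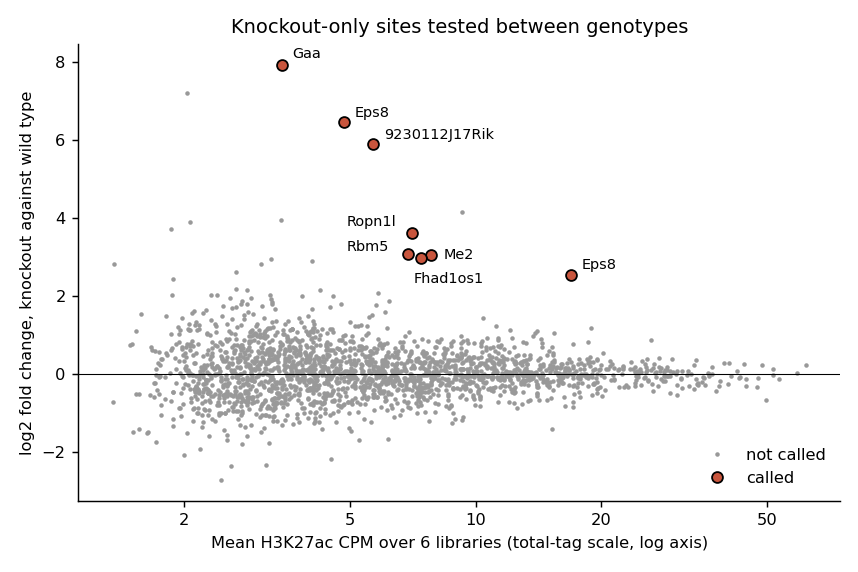
log2 fold change between knockout and wild type from the edgeR fit against the mean H3K27ac CPM (log axis) for the 2178 tested knockout-only sites; grey points were not called and red points, labelled by nearest gene, were called. The 8 called sites all lie above 0, and the points narrow around 0 as the level rises.

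The calls lay in introns. Intronic sites held all 8 among 1169 tested (55 at an edgeR unadjusted p under 0.05), and they were most of the 2178 sites tested. By edgeR none of the 297 tested promoter-TSS sites (13 at that level) and none of the 558 tested intergenic sites (33 at that level) was called. DESeq2 added 1 call in the promoter-TSS class and 1 in the intergenic class. So few calls do not separate the classes. The median log2 fold change was 0.048 over intronic, 0.043 over intergenic and −0.045 over promoter-TSS sites. Summed over the 8 sites, tags in wild-type H3K27ac replicates 1, 2 and 3 were 46, 39 and 51 and in the knockout replicates 512, 632 and 435. Input tags over the same sites were 21, 18 and 12 in wild type against 66, 26 and 15 in the knockout, so wild-type replicate 1 stood above knockout replicate 3. These are raw tags, from input libraries of 3287009 to 6961590 tags. Mean input CPM was higher in the knockout at all called sites except Gaa (0.341 in wild type against 0.244) and Fhad1os1 (0.482 against 0.461). At the Me2 site it was 0.479 against 1.17, and at the Eps8 sites 0.381 against 1.16 and 0.519 against 1.25. None of the 8 was called in the edgeR test of the genotype difference over input. The unadjusted p of that test was 0.0720 at Me2, 0.0793 at Rbm5 and 0.160 at the Eps8 site starting at chr6:137575273. At the remaining called sites it was 4.39e-05 (Gaa), 4.44e-05 (9230112J17Rik), 0.000928 (Eps8 at chr6:137630390), 0.00231 (Ropn1l) and 0.0185 (Fhad1os1).

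**Figure D5:**
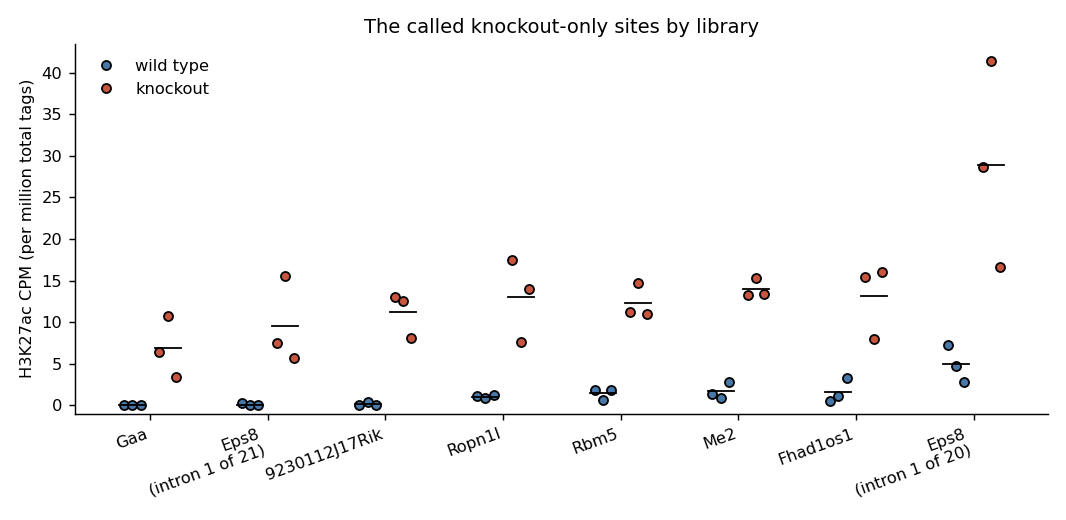
H3K27ac level of the 8 called sites in each library, in CPM of all tags; blue points are wild-type and red points knockout libraries, and the short lines are group means. No wild-type library reaches a knockout library at any of the 8 sites, and wild-type levels are at or near 0 at the first 3.

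At 3 sites the wild-type libraries were almost without tags. The site in Gaa, the lysosomal enzyme that breaks down glycogen, lies at chr11:119280817-119281817 (mm10) in intron 15 of 19, 13354 bp from the TSS. It held 0 tags in each wild-type H3K27ac library and 29, 54 and 17 in knockout replicates 1, 2 and 3. All knockout libraries stood above wild type, and the level rose from 0 to 6.86 ± 3.67 CPM (SD, n = 3). With 3 tags over the wild-type group taken in place of 0, the rise is 28.7-fold. The exact 95% interval of the ratio of the summed tags, which covers counting error only, began at 22.9-fold. The fitted log2 fold change, 7.92 (SE 1.28, edgeR adjusted p = 0.00751), depends on the prior count and is no bound. Input tags there were 1, 4 and 0 in wild type against 3, 1 and 0 in the knockout, so the region gave tags in both genotypes. Its promoter, 13415 bp away in a both-lists window, held 59, 34 and 44 tags in wild type against 48, 88 and 46 in the knockout, and was not called (log2 fold change 0.16, edgeR adjusted p = 0.998).

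The first of a pair of sites in Eps8, which encodes an actin-capping signalling adaptor, lies at chr6:137630390-137631390 in intron 1 of 21. Its H3K27ac tags were 1, 0 and 0 in wild type against 34, 78 and 28 in the knockout. The groups lay far apart, with a knockout-to-wild-type ratio of 120 on the total-tag scale, whose 95% interval of 21.2 to 4787 covers counting error only (log2 fold change 6.44, SE 0.92, edgeR adjusted p = 0.00128). Input tags were 3, 1 and 1 against 11, 4 and 3. The promoter-TSS window of Eps8 18442 bp away was too low to be tested, with 0, 4 and 5 against 5, 15 and 6 tags.

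The site whose nearest TSS is that of the non-coding RNA gene 9230112J17Rik, 69891 bp away, lies at chr9:60615273-60616273 in intron 9 of 15 of Lrrc49, a leucine-rich repeat gene, on a LINE of the L1_Mur3 family. It held 0, 2 and 0 H3K27ac tags in wild type against 59, 63 and 40 in the knockout. The groups did not overlap, and the ratio was 69.6 with a 95% interval of 18.97 to 579.8 from counting error (log2 fold change 5.89, SE 0.79, edgeR adjusted p = 0.000865). Of the 8 sites it alone kept its call with any single library left out. The 2 tested windows within 50 kb had log2 fold changes of −0.23 and 1.04 and were not called.

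The other called sites rose from low wild-type levels. The site nearest Ropn1l, a sperm fibrous sheath gene, lies at chr15:31459065-31460065 in intron 25 of 25 of Marchf6, which encodes a ubiquitin ligase of the endoplasmic reticulum. Its tags were 4, 4 and 5 in wild type against 79, 38 and 69 in the knockout. The level rose from 1.05 ± 0.147 to 12.998 ± 5.01 CPM (SD, n = 3; log2 fold change 3.61, SE 0.54, edgeR adjusted p = 0.00208), with no overlap of the groups. A both-lists window 1197 bp away had 9, 7 and 18 against 22, 53 and 16 tags and was not called (1.16, edgeR adjusted p = 0.998).

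In Rbm5, an RNA-binding splicing regulator gene, the site lies at chr9:107757100-107758100 in intron 5 of 23. Wild-type libraries held 7, 3 and 8 tags and knockout libraries 51, 74 and 54. The lowest knockout library was above the highest wild-type library by a wide margin, at 1.48 ± 0.702 against 12.3 ± 2.09 CPM (log2 fold change 3.06, SE 0.51, edgeR adjusted p = 0.00751). The promoter window of Rbm5, with 71, 73 and 70 against 61, 81 and 79 tags, was not called (−0.17).

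In Me2, which encodes an NAD-dependent malic enzyme of mitochondria that makes pyruvate, the site lies in intron 1 of 15 on a B4A SINE, 2592 bp from the TSS. It held 5, 4 and 12 tags in wild type against 60, 77 and 66 in the knockout, where the libraries lay close together. The level was 1.69 ± 1.02 and 13.98 ± 1.15 CPM (log2 fold change 3.04, SE 0.48, edgeR adjusted p = 0.00485). The Me2 promoter window 2715 bp away held 6, 11 and 29 against 22, 35 and 27 tags and was not called (0.67, edgeR adjusted p = 0.998).

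The site nearest the antisense RNA gene Fhad1os1 lies at chr4:141928615-141929615 in intron 17 of 31 of Fhad1, whose protein carries a forkhead-associated domain. Its tags were 2, 5 and 14 in wild type against 70, 40 and 79 in the knockout, without overlap (log2 fold change 2.98, SE 0.55, edgeR adjusted p = 0.0248). A both-lists window that overlaps it, 847 bp away, held 7, 5 and 10 against 48, 43 and 38 tags and was not called (2.32, edgeR adjusted p = 0.196). Another knockout-only site 13677 bp away, in the same gene, held 1, 4 and 0 against 33, 15 and 45 tags (3.95, edgeR adjusted p = 0.163). Farther along, a both-lists window at 23945 bp held 201, 216 and 201 against 209, 229 and 178 tags (−0.23).

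The second site in Eps8 lies at chr6:137575273-137576273 in intron 1 of 20 of another transcript and was the most acetylated of the 8. It held 27, 21 and 12 tags in wild type against 130, 208 and 82 in the knockout. The level rose from 4.92 ± 2.22 to 28.9 ± 12.4 CPM (log2 fold change 2.54, SE 0.36, edgeR adjusted p = 0.00128) without overlap of the groups. It shares most of its bases with a both-lists window that starts 316 bp before it and was also called (2.78, edgeR adjusted p = 0.00751), so the pair is 1 stretch of chromatin counted in 2 windows. The other 4 tested windows within 50 kb had log2 fold changes of 0.998 to 1.33 and were not called.

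The call count moved with single libraries. Each of the libraries knockout replicate 1, knockout replicate 2 and wild-type replicate 2 brought the 8 calls to 4 when it was left out (without knockout replicate 2, only 3 of those 4 were among the 8), and without wild-type replicate 1, the library with few Y-linked tags, 6 remained called. In that last fit the Me2 site missed the threshold (2.90, edgeR adjusted p = 0.0534). The Fhad1os1 site lost its call without any of 4 of the libraries, and the Gaa, Rbm5 and Me2 sites without any of 3. DESeq2 called all 8 and 5 sites more, of which 4 were higher and 1 lower. Chosen after their values were seen, the added ones were an intronic site nearest Mir5626 (0 tags in each wild-type and 17, 24 and 18 in the knockout libraries), an intronic site of Fbf1 (2, 5 and 5 against 17, 42 and 46), the second Fhad1os1 site, a promoter-TSS site of Casp9, the gene of the initiator caspase-9 of apoptosis (45, 51 and 48 against 157, 97 and 121), and an intergenic site nearest Gm3716.

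Sites with a higher level were examined next, called or not. Among tested sites at or above the median abundance and without overlap of the groups, the largest fitted increases beyond the called ones lay nearest AY512915 (22, 3 and 2 tags in wild type against 37, 31 and 67 in the knockout) and 4933429O19Rik (20, 8 and 4 against 50, 51 and 39). Neither passed the test (2.08 with an edgeR adjusted p of 0.738, and 1.87 with 0.598). The 8 largest decreases ran from −1.68 to −1.16, and none passed with edgeR. That of the intergenic Gm3716 site had the smallest edgeR adjusted p among them, 0.130, with 66, 84 and 127 tags in wild type against 38, 48 and 34 in the knockout, and DESeq2 called it (−1.42, adjusted p = 0.00381). An intronic site of Lipa, the lysosomal acid lipase gene, had 41, 29 and 45 against 15, 21 and 7 tags (−1.66, edgeR adjusted p = 0.654). An upstream site of P2rx7, the ATP-gated channel whose opening is a trigger of the NLRP3 inflammasome, had 19, 29 and 51 against 21, 12 and 15 tags (−1.23, edgeR adjusted p = 0.998). The remaining sites of this kind lay nearest Mrps6 (−1.68), Cdc42ep4 (−1.25), Suco (−1.19), Hpf1 (−1.17) and Bmp2k (−1.16).

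None of the 8 most acetylated knockout-only sites passed the test. The highest, at a promoter of 4930578M01Rik, held 225, 241 and 246 tags in wild type against 307, 301 and 352 in the knockout, at 23.3 and 34.4 times input (log2 fold change 0.23, SE 0.18, edgeR adjusted p = 0.998). The next lay near E230029C05Rik. Intronic sites of Picalm, a clathrin assembly gene, and Inpp5d, the gene of the phosphatase SHIP1, both loci of Alzheimer's disease risk, had 258, 226 and 199 against 279, 230 and 225 tags and 234, 245 and 165 against 243, 267 and 230 tags. The groups overlapped at each, with log2 fold changes of −0.12 and −0.025. A site in the 5' UTR of Jun, a subunit of AP-1, had 160, 204 and 197 against 243, 245 and 269 tags, and an intronic site of Kdm6b, an H3K27 demethylase gene, 205, 204 and 204 against 228, 213 and 219. Per1, a circadian clock gene, was the one of these 8 whose groups did not overlap on the scale of the fit, with 207, 275 and 275 against 194, 237 and 129 tags (−0.66, edgeR adjusted p = 0.599). The site of the RNA helicase gene Ddx6 completed the set (0.12).

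The sites of the printed promoters were read in every library. The Brd2 site, whose annotation names a promoter of the neighbouring H2-DMa, a gene of antigen loading on MHC class II, held 119, 179 and 284 tags in wild type against 215, 222 and 176 in the knockout, at 44.6 and 42.2 times input (log2 fold change −0.13, edgeR adjusted p = 0.998). Its groups overlapped. The P4hb site had 214, 199 and 197 against 219, 171 and 181 tags (−0.31, edgeR adjusted p = 0.998), and the CpG-island site of Hnrnpa2b1, an RNA-binding protein gene, 153, 200 and 201 against 159, 254 and 195 (−0.082). The Slc1a3 promoter site, 13 bp from the TSS, had 25, 15 and 87 tags in wild type against 123, 19 and 120 in the knockout. Its libraries of 1 genotype differed as much as the genotypes did (log2 fold change 0.90, SE 0.52, edgeR adjusted p = 0.998).

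Gene lists were read by their counts. Of 580 windows nearest genes of the homeostatic microglia list, 61 (10.5%) were knockout-only and 76 (13.1%) wild-type-only, and the 61 lay nearest 23 of the 40 listed genes. Their median H3K27ac over input was 2.76 in wild type and 2.70 in the knockout. Of the 33 tested, 14 had a positive fold change, with a median of −0.17 on the log2 scale against 0.0042 over all tested windows. Over all 14 lists together 221 sites lay nearest a listed gene and 97 were tested; edgeR and DESeq2 called none of them in either direction, and 4 had an unadjusted p under 0.05 by edgeR.

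Inflammation lists held knockout-only sites at shares near the 8.18% of all windows. Genes of the inflammasome and of interleukin-1 signalling had 18 (9.05% of 199 windows), of which 13 were tested and 6 had a positive fold change. Their most acetylated site, near Txnip, which encodes a thioredoxin-binding protein known to bind NLRP3, held 131, 225 and 114 against 157, 117 and 171 tags (−0.28). NF-kB cytokines and chemokines had 22 sites (7.72%), and the 6 tested all had a negative fold change, with a median of −0.28, where 50.4% of all tested windows were positive. None of those 6 was called, and none had an unadjusted p under 0.05. The interferon response had 14 (10.0%) with a median of 0.48 over 6 tested, and immediate early genes had 41 (8.25%) with a median of 0.10 over 14 tested. The top sites of NF-kB and interferon lists lay in Rela, a subunit of NF-kB, and Ifngr2, a chain of the interferon gamma receptor, with log2 fold changes of −0.11 and −0.011.

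Metabolic and disease lists were read in the same way. Glutamine and glutamate metabolism, which the series title names, had 18 sites (7.73% of 233 windows) nearest 12 genes, with H3K27ac over input at medians of 1.33 in wild type and 1.91 in the knockout. Of its 8 tested sites 7 had a positive fold change, with a median of 0.76, and 3 of them had an unadjusted p under 0.05. None of the 8 was called with the filter in place, and 50.4% of all tested windows had a positive fold change. Slc1a3, which is in the astrocyte list as well, had 4 of the sites, 3 of them tested. Of the 7 tested sites nearest astrocyte markers 5 were positive, with a median of 0.90, and 3 had an unadjusted p under 0.05. H3K27ac over input of the knockout-only sites of that list stood at medians of 2.61 and 3.26. Over all its windows within 1 kb of a TSS the medians went the other way, at 3.09 in wild type and 1.60 in the knockout. Both lists count 3 sites at an unadjusted p under 0.05 and the inflammasome and interleukin-1 list 1, yet all 14 lists together hold only 4. The glutamine and astrocyte counts thus overlap and are not separate. The part of the astrocyte marker sites in the values of the glutamine list was not tested. The intronic Slc1a3 site at chr15:8706400-8707400, chosen after its values were seen, held 9, 3 and 0 tags in wild type. In knockout replicates 1, 2 and 3 it held 128, 0 and 120 (log2 fold change 4.16, edgeR adjusted p = 0.141). Knockout replicate 2 stood with wild type there, and without a filter on low counts edgeR called the site (4.15, adjusted p = 4.73e-12). Another intronic site, at chr15:8642863-8643863, had 40, 26 and 31 against 69, 49 and 94 tags and was not called (0.93, edgeR adjusted p = 0.998). Outside the knockout-only sites, an intergenic both-lists window nearest Slc1a3 was called higher in the knockout with the filter in place. It lies at chr15:8801373-8802373 (log2 fold change 3.31, edgeR adjusted p = 0.00208). Disease-associated microglia genes had 16 sites (6.58%), 7 tested, with a median of 0.39. Their most acetylated site, in intron 1 of the cathepsin B gene Ctsb, had 23, 83 and 101 against 50, 123 and 81 tags (0.093).

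Near markers of other cells there were 3 sites nearest neuron markers (13.6% of those markers' windows), 11 nearest astrocyte markers (14.5%), 7 nearest oligodendrocyte markers (8.43%) and 5 nearest endothelial and mural markers (6.10%). Border macrophage markers had 9 (7.56%), monocyte and neutrophil markers 8 (13.3%) and lymphocyte markers 4 (11.4%), against 8.18% of all windows, and no site of these lists was called with the filter in place. The most acetylated site near a neuron marker, nearest Neurod1, held 1, 7 and 0 tags in wild type against 4, 0 and 3 in the knockout and lay below input, at 0.582 and 0.557 times. The top site near an oligodendrocyte marker, in Mbp, held 6, 23 and 12 against 34, 28 and 31 tags (0.98, edgeR adjusted p = 0.998). The top border macrophage site, nearest Ccr1, was strongly acetylated at 28.8 and 34.0 times input, with 110, 111 and 134 against 147, 160 and 126 tags. Those near Csf3r (8.32 and 20.5 times input), Ocln (4.07 and 3.19) and Bcl11b (3.22 and 3.20) had log2 fold changes of 0.041, −0.92 and 0.55. In bulk chromatin, a change in the number of cells of a type and a change of acetylation per cell cannot be told apart.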

How the data were processed

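The authors deposited raw tag counts, 1 per library and window. Per the file headers, HOMER's annotatePeaks.pl did the counting, with no adjustment, over mm10 windows of 1000 bp on merged sites. Named in the submitters' processing notes are DESeq2, HOMER and mm10. For the aligner, the site caller and the versions the answer is "not given in the sources used here". The table normalized to equal totals was not used. The genotypes were compared by edgeR 4.0.16 in R 4.3.3, with TMM, filterByExpr, a quasi-likelihood test and Benjamini-Hochberg adjustment over all tested windows (threshold 0.05). H3K27ac over input used 1 fit of all 12 libraries with total tags as library size and no TMM. SE was taken as the log2 fold change divided by the root of F. Levels are CPM on total tags, with 0.5 added in ratios. The fits were tested on simulated data. Alternatives included DESeq2 1.42.0, other filters and scalings, and each library left out. Since no molecular identifiers are mentioned, intervals and floors cover counting error only.

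Named were all called sites; up to 8 per direction with the largest fitted change among tested sites at or above the median abundance whose groups did not overlap; the 8 most acetylated sites; the 5 most acetylated within 1 kb of a TSS; the most acetylated site of each gene list; and the 5 genes with the most sites, 1 site per gene except among called ones. The members, lists and rules were chosen with earlier results of these data known. Replicate numbers did not pair the H3K27ac libraries across the genotypes, so the genotype test had no block. Whether an H3K27ac library pairs with the input of the same number was not checked, and the main fit over input had no block. Wild-type input replicate 1 held 1 Y-linked tag against 43 to 112 in the other input libraries, and H3K27ac replicate 1 of wild type was low there too.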

Additional observations from a re-analysis of the deposited data

How the results depend on the processing

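Of 8 calls between genotypes, total-tag scaling kept 8 and a filter of at least 20 tags in 3 libraries 7. DESeq2 gave 13 (12 higher, 1 lower) and no filter on low counts 14 (13 higher, 1 lower). Over all windows DESeq2 called 24 higher and 44 lower, and the fit without the filter 26 and 42. Leaving out 1 library gave 4 to 8 calls among the sites. With the replicate block the same 8 were called between genotypes, with 1761 and 1870 sites above input. The counts above input fell from 1825 and 1940 to 259 and 284 with TMM, and leaving out 1 library gave 1567 to 1869 in wild type and 1661 to 2049 in the knockout. The difference between genotypes over input had 0 calls in every alternative run, with 98 to 352 sites at an unadjusted p under 0.05 by edgeR. The medians of 1.62 and 1.75 over input became 2.02 and 2.26 with 0.1 CPM added, 1.42 and 1.499 with 1 CPM added, and 1.16 and 1.27 over sites that overlap no other window. Shares of total tags were 1.91% (wild-type H3K27ac), 1.96% (knockout H3K27ac), 0.390% (wild-type input) and 0.351% (knockout input), and window-tag shares of non-overlapping sites 1.27%, 1.37%, 2.61% and 2.47%.

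Signs of uncalled log2 fold changes near 0 turned in 20 refits of 12 named sites. With 1 library left out their ranges were −0.071 to 0.074 (E230029C05Rik), −0.24 to 0.041 (Picalm), −0.22 to 0.096 (Inpp5d), −0.042 to 0.23 (Ddx6), −0.34 to 0.20 (Brd2), −0.20 to 0.063 (Hnrnpa2b1), −0.29 to 0.43 (Ctsb), −0.49 to 0.057 (Txnip), −0.12 to 0.16 (Ifngr2), −0.24 to 0.034 (Rela), −0.093 to 0.25 (Csf3r) and −0.053 to 1.03 (Bcl11b). With the replicate block that of Ifngr2 was 0.0035. Among the uncalled sites that the naming rule gave, that of Gm3716 gained a call with DESeq2 and with no filter (−1.41). The cause of these shifts was not tested. Low depth, 5 to 7 tags at a median site, limits single sites.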
